A study of Homo sapiens with 2 samples.

Results

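The proteasome is the protease that degrades most ubiquitin-tagged proteins in the cytosol and nucleus. Its 20S core is a barrel of alpha rings around beta rings, and the beta subunits hold the proteolytic sites. The 19S particle caps the barrel. Its base unfolds substrates with a ring of ATPases, and its lid removes ubiquitin. Transcription of the constitutive subunits is known to be raised together by NFE2L1 when proteasome activity falls, and interferon is known to induce the immunoproteasome subunits PSMB8, PSMB9 and PSMB10, which replace PSMB5, PSMB6 and PSMB7.

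Proteasome genes were compared between SAS cells, a human tongue squamous carcinoma line, infected with the control pLKO.1 vector (LKO, genotype WT) and SAS cells carrying a hairpin against the histone demethylase KDM4C (shKDM4C, genotype KDM4C knockdown). Both were made with lentivirus and puromycin selection and grown in DMEM with fetal bovine serum, and 1 library was sequenced of each. The question was how KDM4C affects metastasis. The members were the protein-coding genes whose symbol begins PSMA to PSMG followed by a digit, and POMP, ADRM1 and SEM1. The rule used symbols alone and took 53 of the 58884 genes of the count table. Of these, 51 had at least 20 counts over both libraries, as did 18078 genes in all. PSMC3IP, a recombination factor, and PSME3IP1, a partner of PSME3, were taken by symbol only and are not parts of the particle.

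The libraries held 57626616 counts for LKO and 50627096 for shKDM4C. KDM4C had 1047 counts in LKO and 242 in shKDM4C, which is -1.85 as a log2 ratio to LKO (95% interval -2.06 to -1.65). All 7 squamous markers were detected, at a summed 1273 scaled CPM (counts divided by the TMM-scaled library size) in LKO and 1042 in shKDM4C, and they took both directions. CDH1 and TP63 were called lower in shKDM4C at log2 ratios of -1.03 and -0.69, KRT6A was called higher at 1.04, and KRT5, KRT17, EPCAM and KRT14 were not called, at -0.34, 0.011, 0.15 and 0.55. Of the leukocyte markers, PTPRC had 14 and 12 counts and CD3E had 0 in both libraries, and the 3 fibroblast markers summed to 4.48 and 5.58 CPM. Every log2 ratio is of shKDM4C over LKO on counts scaled by TMM, a method that sets the bulk of genes to no change, and every interval covers counting error only. The design has no replicates, so no difference was tested or checked against the spread between cultures. In RNA of a whole culture, less RNA per cell and fewer cells expressing a gene cannot be told apart. An effect of KDM4C loss cannot be told apart from one of the hairpin or of the culture. The sequences that the hairpins target are shown because they define the knockdown, with the 7 bases that pair with guide positions 2 to 8 in capitals. The sources do not name which hairpin the sequenced cells carried.
KDM4C#1: atacttggattacGAAGATTt
KDM4C#2: gctatgagaagccCGAGAAAt

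Proteasome genes stayed close to their control level. Calls needed a difference of 1.5-fold or more together with an interval that left out no change. By this rule 1 of 51 members was lower and 2 were higher, against 15.7% lower and 13.0% higher of all 18078 genes tested. The members were ADRM1 on the lower side and PSMC6 and PSMC3IP on the higher side. The median log2 ratio of the members was 0.14, with quartiles of 0.017 and 0.30, beside a median of -0.0094 and quartiles of -0.43 and 0.36 over all tested genes. Members are counted deeply, and such genes spread less. Among the 6968 genes with at least 2000 counts the SD of the log2 ratio was 0.47, and among the 44 members that reached this depth it was 0.25. The median of these genes was 0.036, with quartiles of -0.24 and 0.26. That of the members at this depth was 0.14, with quartiles of 0.024 and 0.29. Of those 44, 1 was called lower and 1 higher, or 2.27% each way, beside 8.87% and 6.66% of the 6968.

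Smaller differences were more often higher than lower. The interval excluded no change on the higher side for 32 of 51 members and on the lower side for 9, whereas 32.1% of all tested genes were higher and 33.5% lower by the same rule. An interval narrows with depth, and at 2000 counts or more 65.9% of the 44 members were higher and 15.9% lower, beside 46.5% and 39.5% of the 6968 genes. At 1.2-fold or more, 15 members were higher and 5 lower, beside 23.0% higher and 26.4% lower of all tested genes. At 2000 counts or more these shares were 27.3% higher and 6.82% lower for members, beside 25.1% and 23.7% for genes. The share of members higher by 1.2-fold was thus close to the background, and the share lower was below it. With TMM 39 members lay above no change and 12 below, and with total counts, which shift every gene alike, 32 lay above and 19 below. The interval excluded no change on the higher side for 26 members and on the lower side for 14 with total counts. The medians of members and of all tested genes moved together, from 0.14 and -0.0094 with TMM to 0.064 and -0.087 with total counts. Summed over the tested members, PSMC3IP and PSME3IP1 included, these genes took 0.617% of the counts in LKO and 0.658% in shKDM4C. PSMC3IP and PSME3IP1 together took 0.0141% and 0.0150%.

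**Figure D1:**
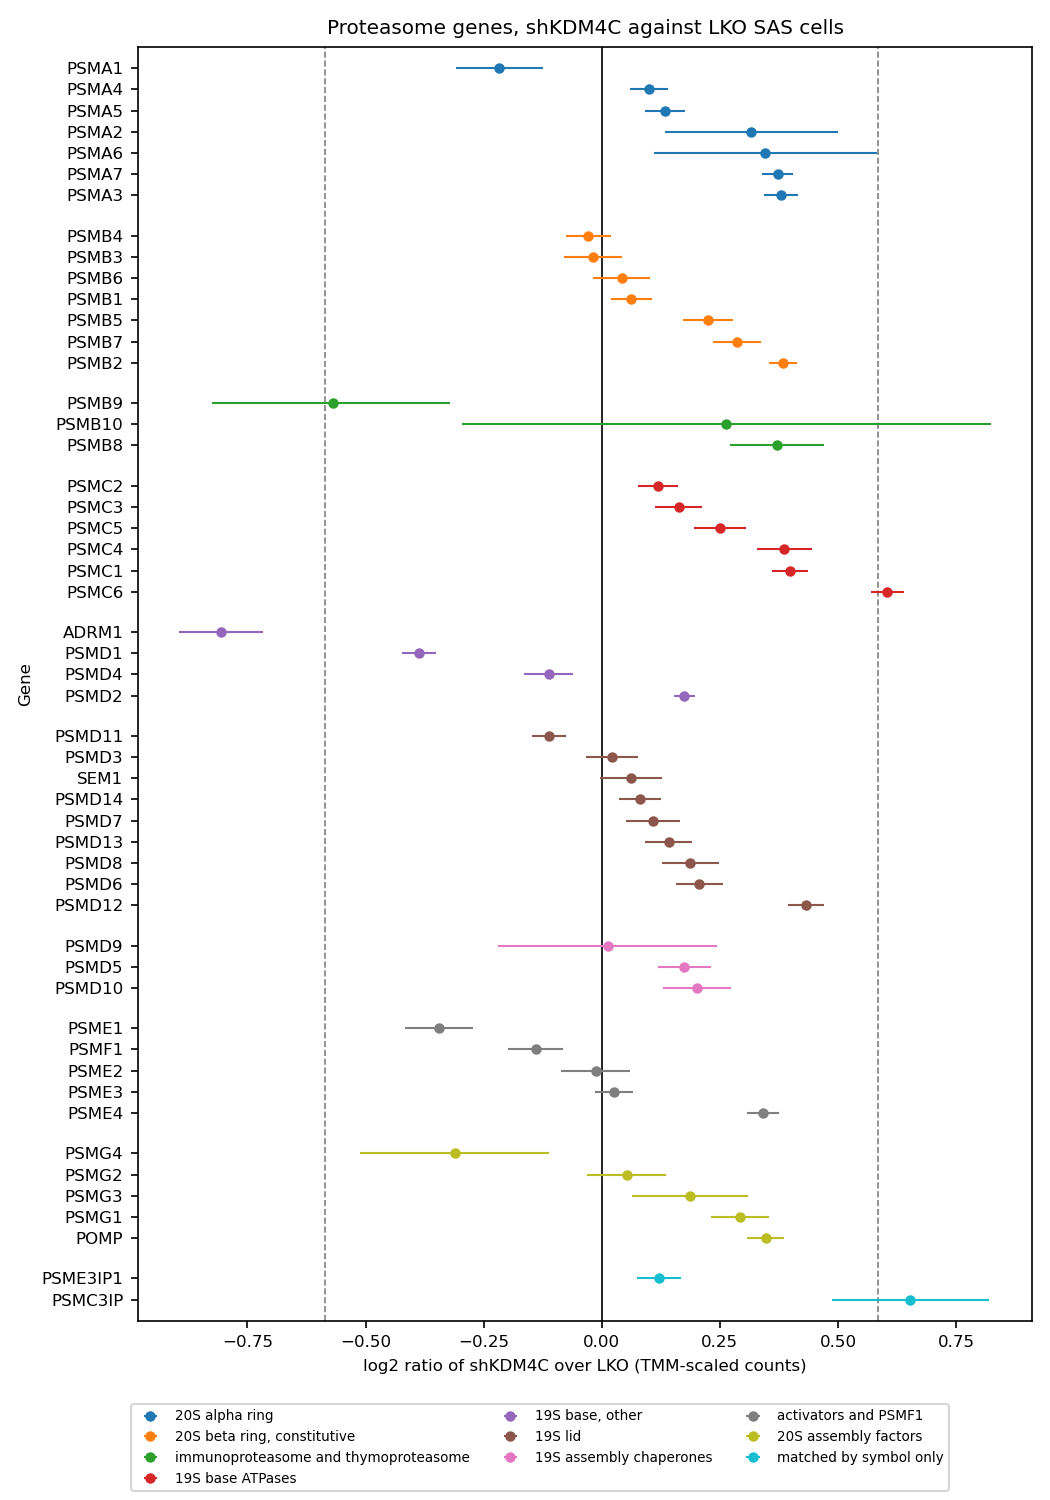
Log2 ratio of shKDM4C over LKO (x axis) for the 51 proteasome genes tested (y axis), coloured by particle. Points are 1 library against 1 library, bars are 95% counting intervals, and dashed lines mark 1.5-fold. ADRM1 lies beyond the line on the left, PSMC6 and PSMC3IP beyond the line on the right.

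**Figure D2:**
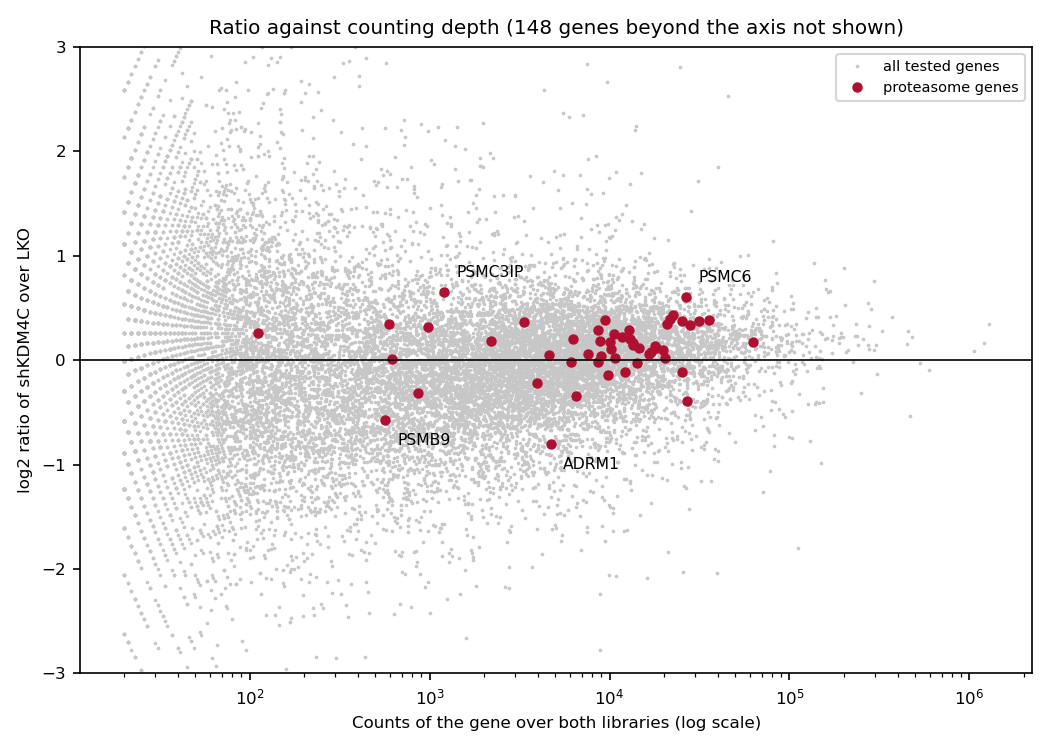
Log2 ratio of shKDM4C over LKO (y axis) against the counts of a gene over both libraries (x axis, log scale). Proteasome genes (red) sit in a narrow band among the 18078 genes tested (grey), of which 148 with an absolute log2 ratio over 3 are outside the axis.

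The alpha ring, whose N termini gate entry to the barrel, had 7 tested genes and none called. Its median log2 ratio was 0.32, from PSMA1 to PSMA3. PSMA3 had 12145 counts in LKO and 13159 in shKDM4C, a log2 ratio of 0.38 (interval 0.34 to 0.42). PSMA7 had 15140 and 16318 counts, with a ratio of 0.37 (interval 0.34 to 0.40). The others above no change were PSMA4 at 0.10, PSMA5 at 0.13, PSMA2 at 0.32 and PSMA6 at 0.35. PSMA1 was the only tested alpha gene below no change, with 2305 counts in LKO and 1652 in shKDM4C, a log2 ratio of -0.22 (interval -0.31 to -0.12). PSMA8, the testis-specific alternative to PSMA7, had 0 counts in both libraries. A count of 0 allows up to 3 counts, or 0.0507 CPM in LKO and 0.0609 in shKDM4C.

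Levels within this ring differed widely. In scaled CPM per kb of canonical transcript, the LKO level ran from 4.79 for PSMA6 to 266 for PSMA7, although the assembled ring holds the subunits in equal number. The 3 lowest levels were those of PSMA6, PSMA2 and PSMA1. These are also the alpha genes whose canonical exons are shared, on the same strand, with another gene of the count table, by 81.4% for PSMA6, 100% for PSMA2 and 67.0% for PSMA1. The other 4 alpha genes share none and ran from 40.6 to 266 CPM per kb in LKO. PSMA6 had 290 counts in LKO and 307 in shKDM4C, and PSMA2 had 482 and 500. The genes that share these exons had 5, 0 and 0 counts in LKO beside PSMA6, PSMA2 and PSMA1. How the authors' counting treated reads in shared exons is not given in the sources used here, and the part of this overlap in the low levels was not tested.

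**Figure D3:**
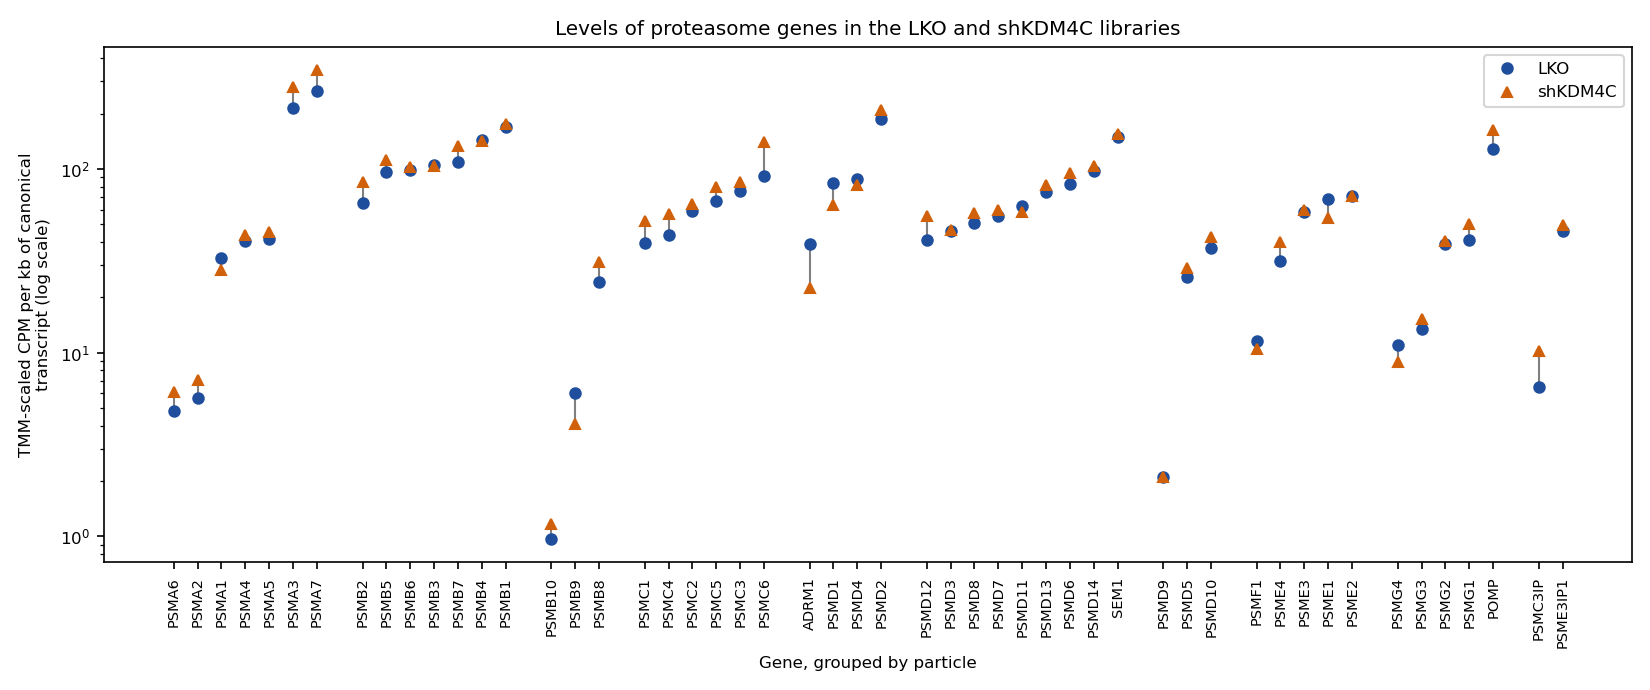
Level of each tested proteasome gene in LKO (blue circles) and shKDM4C (orange triangles), as TMM-scaled CPM per kb of canonical transcript (y axis, log scale), grouped by particle along the x axis. Each point is 1 library. PSMA6, PSMA2, PSMB10 and PSMD9 lie far below the other genes of their groups.

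The constitutive beta ring also had 7 genes and none called, with a median log2 ratio of 0.063. Its levels were more even, from 65.1 CPM per kb for PSMB2 to 169 for PSMB1 in LKO. PSMB2 was highest by ratio, with 17059 counts in LKO and 18539 in shKDM4C and a log2 ratio of 0.38 (interval 0.35 to 0.41). PSMB4 was lowest, with 7854 and 6411 counts and a ratio of -0.029 (interval -0.077 to 0.019). PSMB3 and PSMB1, which are not catalytic, had -0.019 and 0.063. The catalytic subunits differed among themselves. PSMB7, of the trypsin-like site, had 6357 counts in LKO and 6458 in shKDM4C, a log2 ratio of 0.29 (interval 0.24 to 0.34). PSMB5, of the chymotrypsin-like site, had 5943 and 5784 counts, with 0.22 (interval 0.17 to 0.28). PSMB6, of the caspase-like site, had 4830 and 4142 counts, with 0.042 (interval -0.018 to 0.10). The intervals of PSMB5 and PSMB7 lay above that of PSMB6. They cover counting error only, and how often other genes lie this far apart was not counted. With total counts in place of TMM the median of this ring was -0.014.

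The immunoproteasome genes did not share a direction. PSMB8, counterpart of PSMB5, had 1605 counts in LKO and 1728 in shKDM4C, a log2 ratio of 0.37 (interval 0.27 to 0.47). PSMB9, counterpart of PSMB6, had 364 and 204 counts, or 67.4% of the LKO level, a log2 ratio of -0.57 (interval -0.83 to -0.32). PSMB9 fell just short of 1.5-fold and passed it with total counts in place of TMM, at -0.65. PSMB10, counterpart of PSMB7, had 56 counts in each library, a log2 ratio of 0.26 with an interval of -0.30 to 0.82 that leaves its direction unresolved. PSMB11, the thymus-specific subunit, had 0 counts in both libraries.

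Set against its constitutive counterpart within each library, a comparison that no scaling enters, PSMB8 stood at 25.1% of the PSMB5 level per length in LKO and 27.7% in shKDM4C. The log2 change of this ratio was 0.15 (interval 0.035 to 0.26). PSMB9 stood at 6.11% of PSMB6 in LKO and 3.99% in shKDM4C, a log2 change of -0.61 (interval -0.87 to -0.36). PSMB10 stood at 0.887% of PSMB7 in LKO and 0.873% in shKDM4C, a log2 change of -0.023 (interval -0.56 to 0.51). PSMB10 shares 56.1% of its canonical exons with another gene on the same strand, so its level is less certain. The change in PSMB8 relative to PSMB9 was 0.94 on the log2 scale (interval 0.68 to 1.21), although both genes lie within the class II region of chromosome 6, where their annotated spans on opposite strands overlap. TAP1 and TAP2, the peptide transporter genes beside them, had log2 ratios of 0.23 (interval 0.13 to 0.33) and 0.24 (interval 0.18 to 0.30), on the other side of no change from PSMB9. PSMB8-AS1, a noncoding gene on the strand of PSMB9 whose span overlaps it, had 77 counts in LKO and 45 in shKDM4C, with -0.50 (interval -1.08 to 0.038), so its direction was not resolved.

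Promoter windows of RefSeq (GRCh38.p14, 250 bases before to 50 after the start) were found for 47 of the 53 members, in 61 windows. They were searched on either strand for an interferon element, GAAA, any 2 bases, then GAAA. It was found in 7 of the 47 members and in 11.5% of their windows, beside 3.57% of all 35116 windows. PSMB8, PSMB10, PSME1, PSME2 and PSMG4 held it in the same form, GAAAGCGAAA, which stood in 35 of all windows, or 0.0997%. The window of PSMB9 held none, nor did another window of PSMB8 (chr6:32844630-32844929). These stretches are shown because the genes that hold the element took different directions, and the element, or its complement where it lies on the other strand, is in capitals.
PSMB8: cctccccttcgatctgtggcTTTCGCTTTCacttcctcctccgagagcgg
PSMB10: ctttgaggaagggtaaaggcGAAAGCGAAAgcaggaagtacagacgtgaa
PSME1: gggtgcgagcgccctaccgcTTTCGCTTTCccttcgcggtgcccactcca
PSME2: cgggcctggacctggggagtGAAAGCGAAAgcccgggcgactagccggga
PSMG4: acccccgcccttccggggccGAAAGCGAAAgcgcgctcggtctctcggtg

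The stretches are read along the gene's strand. That of PSMB8 runs from -24 to 26 around the start (window chr6:32843998-32844297), that of PSMB10 from -41 to 9 (chr16:67936801-67937100) and that of PSME1 from -15 to 35 (chr14:24135944-24136243). That of PSME2 runs from -48 to 2 (chr14:24146561-24146860) and that of PSMG4 from -53 to -4 (chr6:3258697-3258996). PSMB8 and PSMB10 had log2 ratios of 0.37 and 0.26, and PSME1, PSME2 and PSMG4 had -0.35, -0.013 and -0.31. A match is a description of the letters, not a site in use.

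In the 19S base, the ring of ATPases that unfolds substrates leaned upwards as a whole. All 6 genes lay above no change, with intervals that excluded it, and the median log2 ratio was 0.32. By the same interval rule, 46.5% of the 6968 genes with at least 2000 counts were higher. The ATPases lay from percentile 59.4 to 84.5 of all tested genes. All 8 genes of the CCT chaperonin, another complex, also lay above no change, with a median of 0.31. PSMC6 was the 1 ATPase called. It had 11795 counts in LKO and 14936 in shKDM4C, or 199 and 303 scaled CPM, a log2 ratio of 0.60 (interval 0.57 to 0.64). Its interval reached below 1.5-fold, and with total counts its ratio was 0.53 and it was not called, nor was it when genes with at least 1 count set the TMM factors (0.57). PSMC1 had 10303 and 11313 counts, with 0.40 (interval 0.36 to 0.44), and PSMC3, PSMC5 and PSMC4 had 0.16, 0.25 and 0.39. PSMC2 was lowest with 9489 and 8585 counts and 0.12 (interval 0.077 to 0.16). Of the exons of PSMC1, 83.2% are shared with NRDE2 on the opposite strand, and NRDE2 had a log2 ratio of -0.41.

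Most of the other base subunits went the other way. The median of the 4 was -0.25, the lowest of the particle groups. Of the 4, 3 had intervals below no change, beside 39.5% of the genes with at least 2000 counts. Their summed counts changed little, with a log2 ratio of -0.040 (interval -0.057 to -0.022). ADRM1, a ubiquitin receptor that also docks the deubiquitinase UCHL5, was lowest of all members. It had 3192 counts in LKO and 1520 in shKDM4C, or 53.9 and 30.8 scaled CPM, which is 57.2% of the LKO level and a log2 ratio of -0.81 (interval -0.90 to -0.72). Over all tested genes this ratio lay at percentile 12.1. PSMD1, the scaffold to which ADRM1 binds, had 16404 and 10451 counts, with -0.39 (interval -0.42 to -0.35). PSMD4, another ubiquitin receptor of the base, had 6920 and 5333 counts, with -0.11 (interval -0.16 to -0.060). PSMD2, the second large scaffold, went up slightly, with 32200 and 30267 counts and 0.17 (interval 0.15 to 0.20). Against PSMD2 within the same library, ADRM1 stood at 20.9% per length in LKO and 10.6% in shKDM4C. UCHL5 itself had a log2 ratio of 0.25 (interval 0.21 to 0.30).

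ADRM1 lies on the plus strand at chr20:62302093-62308862 of GRCh38, and 26.7% of its canonical exon bases are shared with genes on the opposite strand. The main gene there is LAMA5, a laminin gene, which had 6068 counts in LKO and 3991 in shKDM4C, a log2 ratio of -0.34 (interval -0.40 to -0.28). The library kit marks strand, the strand setting of the counting is not given in the sources used here, and the part of LAMA5 reads in the ADRM1 ratio was not tested. PSMA7, on the same chromosome arm, had a log2 ratio of 0.37.

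The lid, which holds the deubiquitinase PSMD14, had 9 genes and none called, with a median log2 ratio of 0.11. PSMD14 had 9074 counts in LKO and 7993 in shKDM4C, with 0.081 (interval 0.037 to 0.12). PSMD12 was highest, with 10621 and 11939 counts and 0.43 (interval 0.39 to 0.47), and PSMD11 lowest, with 14283 and 11011 counts and -0.11 (interval -0.15 to -0.075). PSMD11 was the 1 lid gene whose interval lay below no change. The other 6 lay between them, from PSMD3 at 0.022 to PSMD6 at 0.21.

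The promoter windows of ADRM1 and PSMC6, the members called lower and higher within the particle, are shown for comparison, with that of PSMB9. They were searched on either strand for TGACNNNGC, the core of the antioxidant response element through which NFE2L1 is known to act on proteasome genes. This core was found in 17 of the 47 members with a window and in 29.5% of their 61 windows, beside 13.3% of all windows. The windows of ADRM1 (chr20:62302646-62302945, plus strand) and PSMB9 (chr6:32853942-32854241, plus strand) hold it, in capitals, and that of PSMC6 (chr14:52706950-52707249, plus strand) does not.
ADRM1: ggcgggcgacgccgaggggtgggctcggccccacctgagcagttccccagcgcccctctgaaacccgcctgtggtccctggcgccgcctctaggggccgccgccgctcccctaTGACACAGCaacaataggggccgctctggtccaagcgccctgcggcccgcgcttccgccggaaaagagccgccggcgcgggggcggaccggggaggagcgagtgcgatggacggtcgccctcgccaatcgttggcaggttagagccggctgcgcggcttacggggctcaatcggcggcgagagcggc
PSMC6: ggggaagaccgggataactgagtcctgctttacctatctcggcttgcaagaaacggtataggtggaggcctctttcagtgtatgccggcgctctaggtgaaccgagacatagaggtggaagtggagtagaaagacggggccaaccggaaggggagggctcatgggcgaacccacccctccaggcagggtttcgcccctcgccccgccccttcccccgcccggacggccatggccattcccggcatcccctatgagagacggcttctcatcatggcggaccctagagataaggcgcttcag
PSMB9: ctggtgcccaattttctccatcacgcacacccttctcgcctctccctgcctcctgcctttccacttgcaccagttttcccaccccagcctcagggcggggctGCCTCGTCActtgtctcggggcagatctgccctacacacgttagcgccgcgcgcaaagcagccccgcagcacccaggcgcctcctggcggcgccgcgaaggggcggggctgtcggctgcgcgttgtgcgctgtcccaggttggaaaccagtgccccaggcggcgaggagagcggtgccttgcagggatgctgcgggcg

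In the ADRM1 window shown the core lies from -137 to -129. Another window of ADRM1 (chr20:62302747-62303046), around a different start, holds the same letters from -238 to -230. In PSMB9 the core lies on the other strand, from -148 to -140. It also stands in the windows of PSMD12 and PSMC4, with log2 ratios of 0.43 and 0.39, and of PSMD1 and PSME1, with -0.39 and -0.35. Members that hold it were thus found on both sides of no change. PSMA7, PSMB1, PSMB6, PSMB7, PSMD4 and PSMG3 had no entry.

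The chaperones that assemble the 19S base, PSMD5, PSMD9 and PSMD10, had no call and a median of 0.18. PSMD10 (gankyrin) was highest, with 3212 counts in LKO and 3075 in shKDM4C and a log2 ratio of 0.20 (interval 0.13 to 0.27). PSMD5 had 0.18. PSMD9 was lowest, with 338 and 284 counts and 0.013 (interval -0.22 to 0.24). At 2.10 CPM per kb in LKO, its level was below those of PSMD5 at 25.8 and PSMD10 at 36.9, and 28.8% of its exons are shared with another gene on the same strand.

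Among the factors that assemble the 20S core, 4 of 5 lay above no change and none was called, with a median of 0.19. POMP, which brings the beta rings together and is then degraded, had 10119 counts in LKO and 10720 in shKDM4C, with 0.35 (interval 0.31 to 0.39). PSMG1, a chaperone of the alpha ring that pairs with PSMG2, had 4276 and 4360 counts, with 0.29 (interval 0.23 to 0.35), and PSMG2 had 2471 and 2134, with 0.052 (interval -0.032 to 0.14). PSMG3 and PSMG4 form the other pair. PSMG3 had 1133 and 1074 counts, with 0.19 (interval 0.065 to 0.31), and PSMG4 had 514 and 345, with -0.31 (interval -0.51 to -0.11). The intervals of the partners overlapped in neither pair. They cover counting error only, and the log2 ratios of genes with at least 2000 counts had an SD of 0.47. How often the intervals of other gene pairs overlap was not counted.

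The activators that bind the barrel in place of the 19S particle were mixed, with a median of -0.013 and no call. PSME1 and PSME2 form the PA28 ring that interferon induces. PSME1 had 3917 counts in LKO and 2568 in shKDM4C, or 78.7% of the LKO level, with a log2 ratio of -0.35 (interval -0.42 to -0.27). PSME2 had 3359 and 2773 counts, with -0.013 (interval -0.086 to 0.060). PSME3, the nuclear form, had 11052 and 9367 counts, with 0.025 (interval -0.015 to 0.065). PSME4 (PA200), also nuclear, was highest with 13575 and 14325 counts and 0.34 (interval 0.31 to 0.38). PSMF1 (PI31), known in vitro as an inhibitor of the core, had 5560 and 4202 counts, with -0.14 (interval -0.20 to -0.082).

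Of the 2 genes taken by symbol only, PSMC3IP was called higher. It had 520 counts in LKO and 681 in shKDM4C, or 157% of the LKO level, with a log2 ratio of 0.65 (interval 0.49 to 0.82), and it was not called with total counts (0.58). Of its exons, 57.2% are shared on the opposite strand with MLX, which had a ratio of 0.44 (interval 0.36 to 0.52). PSME3IP1 had 7632 and 6911 counts, with 0.12 (interval 0.074 to 0.17). Without these genes, 1 member was lower and 1 higher.

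Genes that make, load or act with proteasomes were listed separately by function. Of 38, 36 were tested, 3 were called lower and 2 higher, and the median was 0.17. Over all tested genes 15.7% were called lower and 13.0% higher, and 8.87% and 6.66% of those with at least 2000 counts. The calls are given for description only. VCP, the segregase that extracts ubiquitinated proteins and hands them to the proteasome, was lowest, with 21994 counts in LKO and 10290 in shKDM4C and a log2 ratio of -0.83 (interval -0.87 to -0.80). The others called lower were NLRC5, a transactivator of class I antigen presentation genes, with 563 and 290 counts and -0.69 (interval -0.90 to -0.49), and UBQLN4, a shuttle for ubiquitinated proteins, with 3024 and 1641 counts and -0.62 (interval -0.71 to -0.53). Called higher were SQSTM1 (p62), an autophagy receptor, with 7689 and 9981 counts and 0.64 (interval 0.60 to 0.68), and AKIRIN2, which brings proteasomes into the nucleus, with 1862 and 2415 counts and 0.64 (interval 0.55 to 0.73).

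NFE2L1 had 6982 counts in LKO and 4831 in shKDM4C, a log2 ratio of -0.27 (interval -0.32 to -0.21). DDI2, the protease that activates NFE2L1, and NGLY1, which deglycosylates it, had -0.29 (interval -0.35 to -0.23) and -0.20 (interval -0.30 to -0.093). All 3 were lower by less than 1.5-fold. NFE2L2 and NFE2L3, also on the list, had -0.38 (interval -0.43 to -0.33) and 0.30 (interval 0.21 to 0.39). These are RNA levels, and any part of these genes in the levels of the subunits was not tested. UBB, a polyubiquitin gene, had 0.33 (interval 0.30 to 0.37). IRF1, a factor through which interferon induces immunoproteasome genes, had 0.20 (interval 0.077 to 0.32).

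Other complexes of fixed composition had medians on the same side as the proteasome. The COP9 signalosome, a relative of the lid, had a median of 0.15 over 10 genes with 1 called higher, COPS2 at 0.69. The translation factor eIF3 had 0.23 over 13 genes with 1 called higher, EIF3J at 0.67, and the CCT chaperonin had 0.31 over 8 genes with none called. Over all tested genes 13.0% were called higher. The median of the proteasome genes was no larger than that of these complexes, and the difference between lists was not tested.

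**Figure D4:**
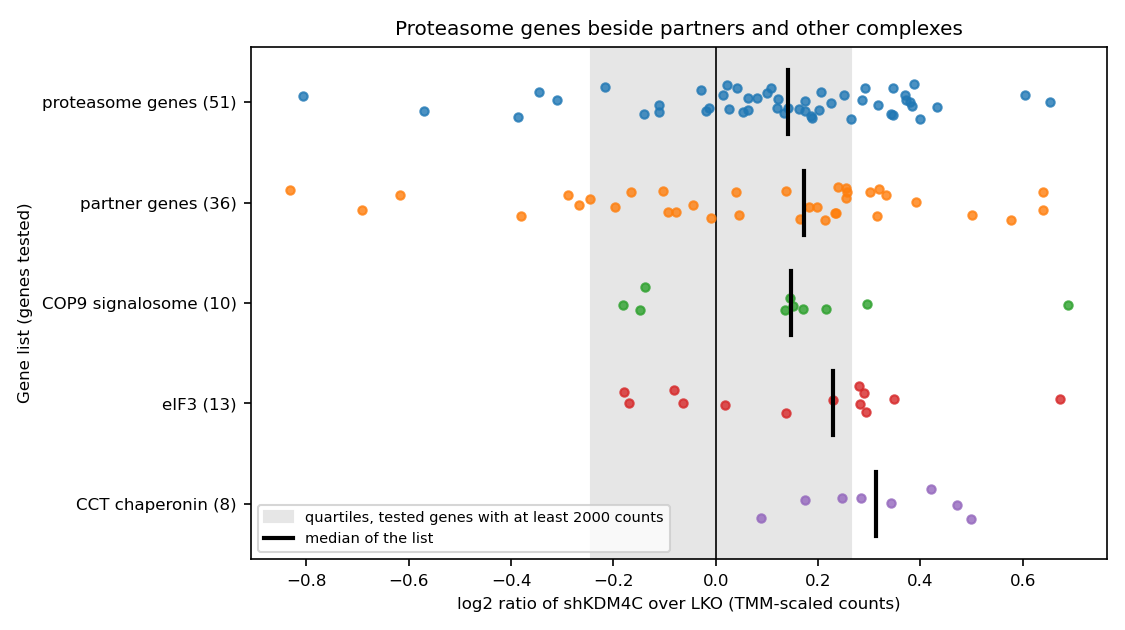
Log2 ratio of shKDM4C over LKO (x axis) for each tested gene (points, spread vertically for visibility) of 5 lists (y axis). Black bars are medians, from 0.14 for proteasome genes to 0.31 for CCT, and the grey band spans the quartiles of the genes with at least 2000 counts.

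The 7 capital letters of each hairpin target were also sought in the 3′ UTR of canonical transcripts. GAAGATT, of KDM4C#1, was found in 4 of 51 members, PSMC2, PSMD1, PSMD12 and PSMF1, and in 13.3% of the 13223 UTRs searched. CGAGAAA, of KDM4C#2, was found in 0 members and in 2.66% of all UTRs. The 4 genes with a word had log2 ratios of 0.12, -0.39, 0.43 and -0.14, and neither ADRM1 nor PSMC6 holds one. Only these exact letters in canonical 3′ UTRs were sought, and an effect of the hairpins on other genes was not tested.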

How the data were processed

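RNA-seq libraries of LKO and shKDM4C SAS cells, 1 each, were compared. The authors trimmed reads with Trimmomatic, aligned them to GRCh38 with HISAT2 and deposited whole-number counts per gene from featureCounts. The sources used here do not give tool versions, annotation release, strand setting or the treatment of shared exons. The deposited comparison tables of the authors, with fold changes and p-values, were not used.

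Gene names and lengths came from GENCODE v44, in which 58472 of 58884 IDs were found. Depth was 57626616 and 50627096 counts. TMM factors were computed across all genes with at least 20 counts (edgeR 4.0.16, R 4.3.3). The log2 ratio used a prior count of 0.5, with an exact (Clopper-Pearson) 95% interval. Intervals of a ratio between 2 genes were computed on the log scale from the 4 counts. No p-value was computed. The calculation was tested on simulated data. Alternatives were total counts, DESeq2 1.42.0 size factors, other count minimums, prior counts, intervals and folds, and the members without those taken by symbol only. The rule for named genes took called members, the lowest and highest of each particle group, immunoproteasome genes with their counterparts, members under the count minimum, called partners, NFE2L1 and KDM4C. Other genes were named after their values were seen, and some listed genes are not reported here. Members and lists were chosen with earlier results of these data known. Other steps ran in Python 3.11.15 (scipy 1.17.1).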

Additional observations from a re-analysis of the deposited data

How the results depend on the processing

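With total counts the log2 ratio of every gene was lower by 0.077 than with TMM. The members called lower were then 2 (ADRM1 and PSMB9) and those called higher 0, and the median of all tested genes was -0.087. The medians under total counts were 0.064 for the members, 0.24 for the alpha ring, -0.014 for the beta ring, 0.19 for the immunoproteasome genes, 0.24 for the ATPases, -0.33 for the other base subunits and 0.031 for the lid. They were 0.098 for the 19S chaperones, -0.090 for the activators, 0.11 for the 20S assembly factors and 0.31 for the genes taken by symbol only. For the COP9 signalosome, eIF3, CCT and the partner genes they were 0.071, 0.15, 0.24 and 0.096. With genes of at least 1 count, 2 members were lower and 1 higher, and the median of all tested genes was 0.059. With at least 200 counts PSMB10 dropped out and the immunoproteasome median was -0.080. At 1.2-fold, 5 members were lower and 15 higher, and at 2-fold, 0 and 0. Without PSMC3IP and PSME3IP1, 1 member was higher. The SD of the background genes was 0.84 over all tested genes and 0.47 over those with at least 2000 counts. RLE size factors, a prior count of 5, a 99% interval and no interval changed no call of a member. No paired analysis was possible because each condition has 1 library, and no replicate could be left out for the same reason. The interval of the median member reached 0.055 to either side on the log2 scale, whereas the direction of PSMB10, at 56 counts per library, was not resolved.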
